A study of Mus musculus with 23 samples.

Results

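The hearts compared here came from 77-day-old C57BL/6 mice that carry a calcineurin transgene (CnAtg), 4 given JIB-04 and 4 given vehicle, and the members are the 12860 of 43154 listed genes with an FPKM (fragments per kilobase of transcript, scaled to the library's mapped fragments) of at least 1 in at least 3 of these 8 libraries. Left out were mt-Atp6, mt-Atp8 and mt-Co3, abundant mitochondrial transcripts that several libraries list at 0. JIB-04, a small molecule that inhibits demethylases of the Jumonji family, was given at 50 mg/kg, 3 times in each week, from week 5 of life in the mice taken at day 77 and from week 4 in those taken at day 45. All 8 hearts thus carried the transgene, so the comparison concerns the drug in a heart with sustained calcineurin activity and holds no wild type (WT) heart. The design text names the line MHC-CnAtg, after the cardiac myosin heavy chain promoter that is active in heart muscle cells. Used beside them were, at day 45, CnAtg vehicle, CnAtg JIB-04, WT vehicle and WT JIB-04 hearts with 3 libraries each, and 3 WT JIB-04 hearts of day 77. No WT vehicle hearts of day 77 were analysed here, and for the WT JIB-04 mice the start, week 4 or 5, is not assigned to an age. The design text mentions vehicle alone for wild type mice, so the WT JIB-04 hearts rest on their sample labels. The labels number the libraries of a group as replicates without saying that each is a separate mouse, so the p-values measure the spread between these libraries.

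Calcineurin is a calcium-activated phosphatase. It releases NFAT transcription factors to the nucleus, and a constantly active form in heart muscle cells produces severe hypertrophy. Jumonji demethylases are iron- and alpha-ketoglutarate-dependent enzymes that remove methyl groups from histone lysines. Interferons signal through the kinases JAK1, JAK2 and TYK2 to transcription factors of the STAT family. A STAT complex with IRF9 binds the interferon-stimulated response element (ISRE), and STAT dimers bind the gamma-activated site (GAS). Both switch on genes that restrict viruses and load peptides onto class I molecules, and endothelial cells, fibroblasts and immune cells of the heart respond as well as heart muscle cells.

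Ppp3ca, which encodes the calcineurin A alpha catalytic subunit and so reads the transgene as well as the mouse's own gene, stood at an FPKM of 1661, 1415, 1722 and 1588 in the vehicle hearts and 1579, 1630, 1474 and 1682 in the JIB-04 hearts. The groups overlapped, and the log2 difference was 0.00 (95% interval -0.16 to 0.15). WT vehicle hearts of day 45 had 26.3 ± 2.41 (SD, n = 3). Rcan1, a calcineurin inhibitor that NFAT itself induces, averaged 84.9 ± 19.9 with vehicle and 86.0 ± 13.8 with JIB-04 (SD, n = 4 each). Myh6, the main myosin heavy chain of the adult mouse ventricle, averaged 2304 ± 262 and 2267 ± 168 (SD, n = 4 each).

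No gene passed the threshold, an adjusted p under 0.05 over the 12860 genes (limma, Benjamini-Hochberg adjustment). The smallest adjusted p was 0.402, so every JIB-04 difference of a gene below is a value that did not pass. Of the genes, 1081 (8.41%) had an unadjusted p under 0.05, with 857 (6.66%) lower and 224 (1.74%) higher with JIB-04. In 479 genes (3.72%) all 4 JIB-04 libraries lay below all 4 vehicle libraries, and in 153 (1.19%) all lay above, 632 genes (4.91%) in all. Differences, always given as JIB-04 minus vehicle on the log2(FPKM + 1) scale, were below 0 in 61.1% of genes with a median of -0.03, and the middle gene's 95% interval reached 0.20 to either side. The lean towards lower values depended on scaling, since the lower and higher genes at an unadjusted p under 0.05 numbered 558 and 414 after median-ratio scaling and 520 and 478 after quantile normalization. On this background the gene groups below are described by how many members lay in each direction and by their median.

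The libraries were alike in mitochondrial share of summed FPKM, 15.8 to 17.4% with vehicle and 15.9 to 16.6% with JIB-04. Features with an FPKM of at least 1 numbered 12588 to 12782 with vehicle and 12384 to 12581 with JIB-04, which did not overlap (exact permutation test, two-sided, p = 0.0286, the smallest that 4 against 4 allows, adjusted p = 0.143 over 5 measures). Vehicle replicate 3 and JIB-04 replicate 1 were the only male hearts of the 8 by their Y-linked transcripts. Vehicle replicates 2 and 3 and JIB-04 replicate 2 were the hearts that listed the left-out mitochondrial transcripts at 0, and the split into these 3 and the other 5 was chosen after seeing the data. JIB-04 replicate 1 stood farthest from the others on the first principal component, which held 22.8% of the variance. Absolute read depth is unknown from FPKM values, and relative depth ran from 0.909 to 1.11 with vehicle and from 0.897 to 1.05 with JIB-04.

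Genes of the interferon response were lower on average in the JIB-04 hearts. All 28 interferon-response genes that passed the expression filter, of 29 listed, had a lower mean in the JIB-04 hearts, against 61.1% of all genes. In 17 of the 28 the libraries did not overlap, against 3.72% of all genes, and 22 had an unadjusted p under 0.05, against 6.66%. Their median difference was -0.53, against -0.03 for all genes, and it stayed between -0.52 and -0.49 under other scalings. Summed over the 28 genes, FPKM ran from 292 to 360 in the vehicle hearts and from 148 to 270 in the JIB-04 hearts. The list and its pattern were known from earlier work on these data, so the counts describe it and support nothing further.

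**Figure D1:**
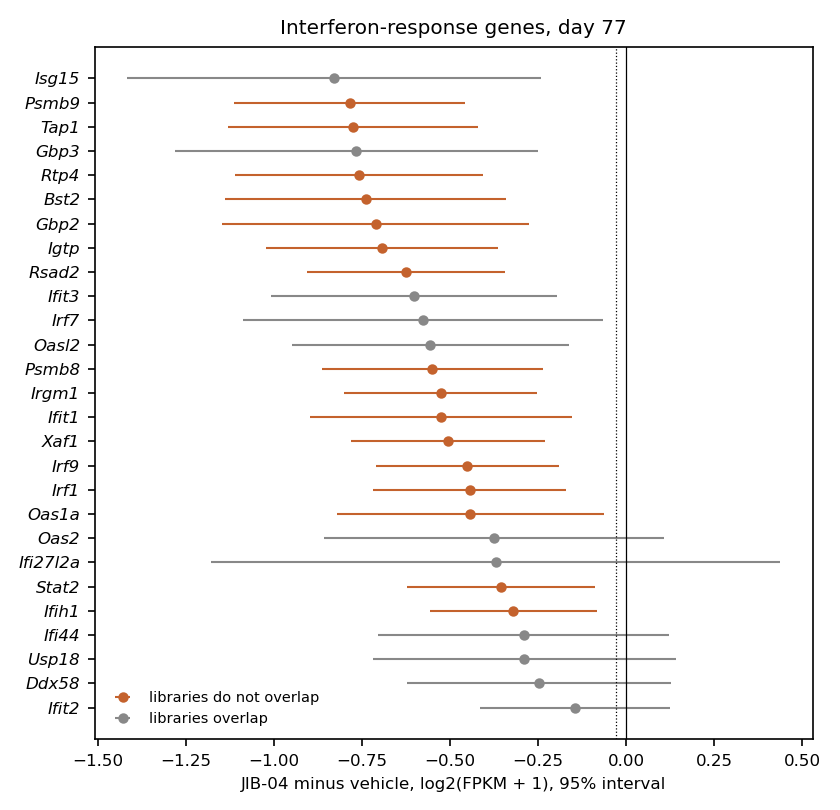
Difference between JIB-04 and vehicle at day 77 (x axis, log2(FPKM + 1), points with 95% intervals) for 27 of the 28 interferon-response genes (y axis). Orange marks genes whose 4 and 4 libraries do not overlap, grey the others, the solid line marks 0 and the dotted line the median of all genes (-0.03). All 27 points lie below 0.

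Transcription factors of the pathway were among the low genes. Irf9 (chr14:55603571-55610030), the DNA-binding partner of the STAT complex, had an FPKM of 8.29, 9.56, 9.001 and 7.57 with vehicle and 4.55, 6.51, 6.76 and 6.46 with JIB-04. All 4 JIB-04 hearts were below all 4 vehicle hearts, with replicate 1 the lowest, and the log2 difference was -0.45 ± 0.12 (SE; limma, unadjusted p = 0.0035, adjusted p = 0.46). Stat2 differed by -0.36 and Irf1, which interferon gamma induces, by -0.44, both without overlap. Irf7, the amplifier of type I interferon production, averaged 6.99 ± 1.73 against 4.46 ± 1.53 (SD, n = 4 each) with overlapping libraries.

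The antiviral effectors covered a wider range. Rsad2 (viperin, chr12:26442753-26456452), which makes a chain-terminating nucleotide, had an FPKM of 3.76, 4.83, 3.65 and 3.22 with vehicle and 1.70, 1.95, 2.36 and 2.60 with JIB-04. Every JIB-04 heart was below every vehicle heart, with a log2 difference of -0.63 ± 0.13 (SE). Bst2 (tetherin, chr8:71534264-71537437), which holds budding virions at the membrane, read 35.6, 38.8, 30.3 and 32.5 against 13.1, 25.9, 21.98 and 21.5, again without overlap. Rtp4, an interferon-induced regulator of the response, averaged 5.30 ± 1.13 against 2.72 ± 0.622, and Xaf1, a pro-apoptotic interferon target, 9.32 ± 1.57 against 6.24 ± 0.781 (SD, n = 4 each), both without overlap. Isg15, the ubiquitin-like modifier, had the lowest difference of the list, -0.83, but vehicle replicate 3 at 6.46 lay below JIB-04 replicates 2 at 7.51 and 3 at 6.57. Ifit1, which binds foreign RNA ends, is a neighbour of Ifit2 and Ifit3 on chromosome 19. Ifit1 differed by -0.53 without overlap and Ifit3 by -0.60 with overlap, whereas Ifit2 differed by -0.15 (95% interval -0.42 to 0.12), the smallest difference of the 28. Ifi27l2a, the most abundant of the 28 genes, averaged 90.9 ± 34.1 against 71.0 ± 30.1 (SD, n = 4 each). The 95% interval of its log2 difference of -0.37 ran from -1.18 to 0.44 and so held both signs.

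The interferon-inducible GTPases attack the vacuoles of intracellular pathogens. This list was drawn up after the values had been seen and shares Igtp, Irgm1, Gbp2 and Gbp3 with the list above, so its counts only describe it. Of 18 listed genes 15 passed the filter, 13 were lower and 11 of these did not overlap, against 61.1% and 3.72% of all genes. The median was -0.71, or -0.45 without the 2 male hearts. Iigp1 (chr18:60376029-60392627) read 18.5, 26.7, 33.7 and 24.6 with vehicle and 9.67, 11.99, 12.4 and 12.8 with JIB-04. The highest JIB-04 heart was thus below the lowest vehicle heart, and the log2 difference of -1.06 ± 0.16 (SE) had the smallest p of all genes (limma, unadjusted p = 8.37e-05, adjusted p = 0.402). Igtp (Irgm3, chr11:58199556-58207591) read 21.6, 24.7, 36.8 and 26.1 against 15.01, 18.9, 16.3 and 14.8, without overlap. Irgm1 differed by -0.53, Gbp5, which promotes inflammasome assembly, by -0.85, and Gbp4 by -1.11, in which vehicle replicate 3 at 10.4 stood far above the other vehicle hearts at 2.62 to 3.95. Tgtp2 differed by -1.16, and it shares reads with its near-identical copy Tgtp1, so the split between the copies is uncertain, as it may be among the Gbp genes. The exceptions were Mx2, with a difference of 0.20, and Gbp6, which read 88.5, 67.8, 115 and 84.7 against 119, 84.4, 82.0 and 76.7 and so overlapped. Gbp6 was also the GTPase most raised by the transgene at day 45, by 3.21 on the log2 scale (limma, adjusted p = 4.45e-07), while Iigp1, Gbp4 and Gbp5 were reduced there.

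**Figure D2:**
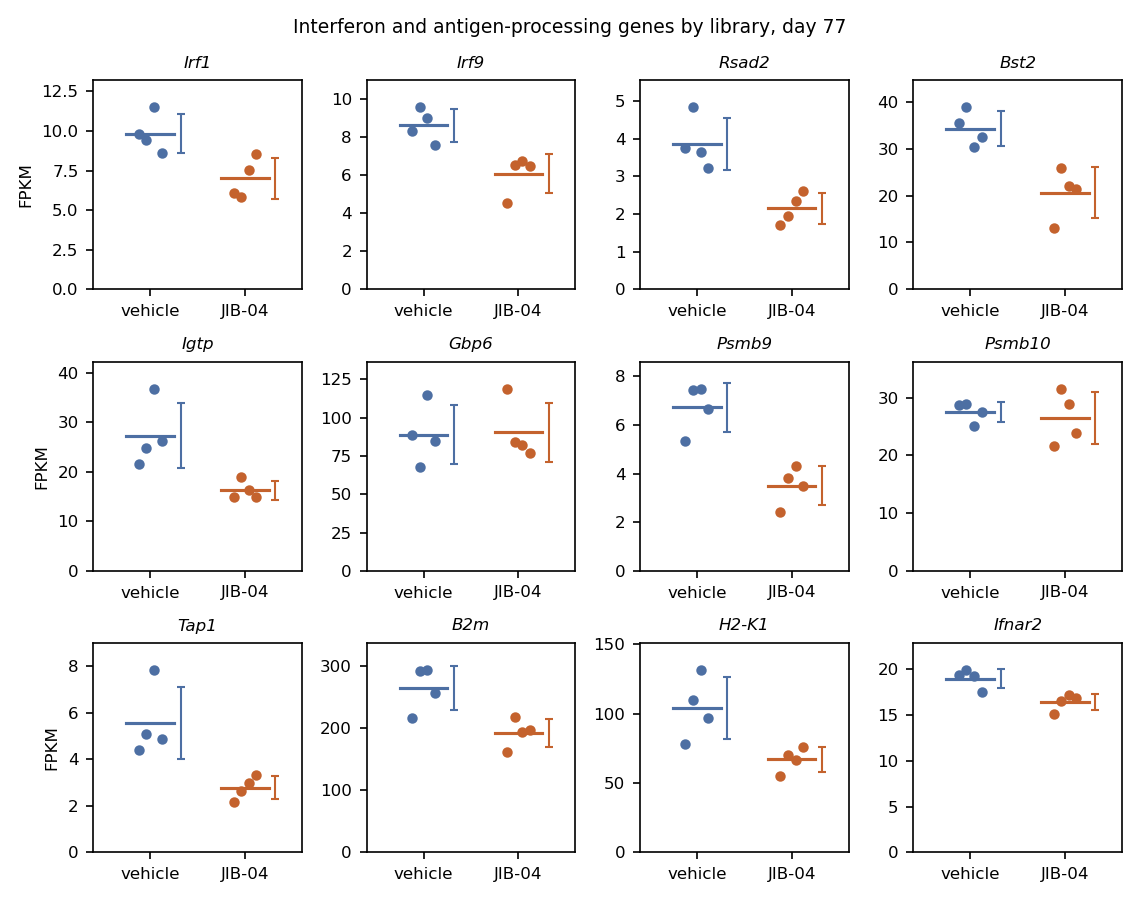
FPKM (y axis, from 0) of 12 interferon and antigen-processing genes in the 4 vehicle (blue) and 4 JIB-04 (orange) hearts of day 77. Points are libraries, horizontal lines means and bars SD. The groups are apart in Irf1, Irf9, Rsad2, Bst2, Igtp, Psmb9, Tap1, H2-K1 and Ifnar2 and overlap in B2m, Gbp6 and Psmb10.

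Genes that load peptides onto class I molecules were low in the same hearts. Their list was drawn up after the values had been seen and shares Psmb8, Psmb9 and Tap1 with the interferon-response genes. In it 23 of 23 genes were lower and 12 did not overlap, against 61.1% and 3.72% of all genes. The median was -0.46, or -0.32 without the 2 male hearts and -0.38 without JIB-04 replicate 1. Psmb9 (chr17:34181988-34187764), a catalytic subunit of the immunoproteasome, read 5.32, 7.44, 7.49 and 6.66 with vehicle and 2.43, 3.84, 4.30 and 3.47 with JIB-04, which did not overlap. Its divergent neighbour Tap1 (chr17:34187553-34197225), a subunit of the peptide transporter, read 4.41, 5.07, 7.81 and 4.87 against 2.17, 2.63, 2.97 and 3.32, also without overlap. The deposited loci of the pair overlap at their starts and the libraries do not keep the strand, so reads from that stretch cannot be told apart. Psmb8, the immunoproteasome subunit encoded beside them, averaged 15.3 ± 3.54 against 9.99 ± 0.903 without overlap, but Psmb10, the remaining immunoproteasome subunit on another chromosome, averaged 27.5 ± 1.75 against 26.5 ± 4.52 (SD, n = 4 each) with overlap. The 14 constitutive proteasome subunits had a median of -0.02 and none had an unadjusted p under 0.05. Psmb5, the constitutive counterpart of Psmb8, averaged 142 ± 4.39 against 134 ± 9.43 (SD, n = 4 each).

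The class I heavy chains were lower as well. H2-K1 read 78.5, 110, 131 and 97.2 with vehicle and 55.3, 69.96, 66.8 and 76.1 with JIB-04, and H2-D1 read 82.2, 97.4, 121 and 96.7 against 57.7, 73.8, 68.3 and 78.4. Neither overlapped, although for both the lowest vehicle heart (replicate 1) came close to the highest JIB-04 heart (replicate 4). The non-classical H2-T22 (chr17:36037128-36042747) read 11.3, 14.3, 14.5 and 11.2 against 6.26, 8.01, 7.65 and 8.01, a difference of -0.70 ± 0.11 (SE; limma, unadjusted p = 9.04e-05, adjusted p = 0.402). H2-Q7 differed by -1.10. B2m, the light chain of all of them, read 217, 292, 294 and 258 against 162, 218, 194 and 197, and JIB-04 replicate 2 at 218 just exceeded vehicle replicate 1 at 217. The heavy chain genes are a multigene family of high sequence similarity, so reads may be shared between them. Class II genes, which professional antigen-presenting cells express, were also lower. Cd74, the invariant chain, read 83.3, 94.2, 139 and 72.7 against 45.9, 65.9, 64.1 and 67.5. H2-Aa differed by -0.61 and H2-Ab1 by -0.63, both without overlap, and H2-Eb1 by -0.42 with overlap. Over the whole list of 19 complement and antigen-presentation genes 17 were lower and 6 did not overlap, against 61.1% and 3.72% of all genes. The median was -0.27. Without vehicle replicate 1 the median was -0.16, with 13 of 17 lower, and within the 3 hearts listing the transcripts at 0 it was -0.06, with 11 of 19 lower, against -0.37 and 19 of 19 within the other 5. The complement component C3, at 20.4 ± 4.40 against 22.5 ± 3.90 (SD, n = 4 each), was among the exceptions.

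The 10 interferon ligand, receptor and kinase genes that passed the filter, of 15 listed, had a median of -0.09, against -0.03 for all genes. Of them 9 were lower and 1 did not overlap, against 61.1% and 3.72% of all genes. This list and that of the sensors below were added later, so their counts only describe them. Ifnb1, Ifna4, Ifnk and Ifnl2, which encode type I and type III interferons, were listed at 0 in all 8 libraries, and Ifng was at most 0.113 in any of them. The receptor chain Ifnar1 averaged 8.29 ± 0.206 against 7.52 ± 0.550 and Ifngr1 29.5 ± 3.04 against 31.5 ± 3.07 (SD, n = 4 each), both with overlap. Jak1 differed by -0.02 (95% interval -0.15 to 0.12). Ifnar2, the other chain of the type I receptor, was the gene without overlap, with 19.4, 19.9, 19.2 and 17.5 against 15.2, 16.5, 17.2 and 16.9, and a difference of -0.20 ± 0.06 (SE). Of 11 nucleic-acid sensors tested 9 were lower and 4 did not overlap, against 61.1% and 3.72% of all genes. Among them Zbp1, which binds Z-form nucleic acids and is itself interferon-induced, differed by -0.71 without overlap. Tmem173 (STING), the adaptor of cytosolic DNA sensing, differed by -0.36 without overlap. Irf3, the factor that these sensors activate, differed by -0.20 with overlap.

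The promoters of low genes are shown because the pathway's binding motifs can be read in them. RefSeq windows (GRCm38.p6, the 250 bases before a start, 5′ to 3′ on the gene's strand) were searched on both strands for the ISRE (GAAA, any 2 bases, GAAA) and for the GAS (TTC, any 3 bases, GAA). Matches are in capitals and may overlap, and 23 of the 28 interferon-response genes matched by symbol.
Igtp (chr11:58199306-58199555, plus strand), a GAS and an ISRE: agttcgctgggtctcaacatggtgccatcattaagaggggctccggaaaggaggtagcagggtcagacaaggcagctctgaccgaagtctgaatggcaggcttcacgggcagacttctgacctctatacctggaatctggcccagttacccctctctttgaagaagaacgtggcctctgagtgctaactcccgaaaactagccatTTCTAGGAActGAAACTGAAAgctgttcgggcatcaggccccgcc
Bst2 (chr8:71537473-71537722, minus strand), a GAS overlapping 2 ISRE matches: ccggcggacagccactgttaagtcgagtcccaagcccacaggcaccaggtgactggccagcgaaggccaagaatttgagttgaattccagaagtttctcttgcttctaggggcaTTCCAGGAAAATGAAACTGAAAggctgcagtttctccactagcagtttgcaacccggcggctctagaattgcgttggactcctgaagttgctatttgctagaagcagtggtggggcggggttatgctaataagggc
Rsad2 (chr12:26456453-26456702, minus strand), an ISRE: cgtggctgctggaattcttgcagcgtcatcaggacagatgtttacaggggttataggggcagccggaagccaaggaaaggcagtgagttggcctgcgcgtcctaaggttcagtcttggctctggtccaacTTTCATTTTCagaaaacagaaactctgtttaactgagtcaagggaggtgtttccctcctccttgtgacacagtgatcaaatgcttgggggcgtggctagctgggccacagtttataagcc
H2-T22 (chr17:36042743-36042992, minus strand), an ISRE: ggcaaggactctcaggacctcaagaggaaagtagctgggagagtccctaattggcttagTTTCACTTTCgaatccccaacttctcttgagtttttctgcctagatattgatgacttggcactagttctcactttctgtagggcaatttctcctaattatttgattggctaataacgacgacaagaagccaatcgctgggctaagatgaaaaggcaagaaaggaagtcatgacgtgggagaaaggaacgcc
Psmb9 and Tap1, the 225 bases between their starts (chr17:34187331-34187555, plus strand), no match: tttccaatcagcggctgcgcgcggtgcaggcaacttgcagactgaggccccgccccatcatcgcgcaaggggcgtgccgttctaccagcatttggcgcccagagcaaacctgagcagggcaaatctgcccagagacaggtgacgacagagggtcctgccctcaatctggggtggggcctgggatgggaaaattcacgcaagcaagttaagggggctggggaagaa
An ISRE match occurred in 40.7% of the 27 windows of interferon-response genes, in 9 of the 11 GTPase windows, in 3 of the 21 windows of class I genes (14.3%), in 2.98% of all 32851 windows and in 2.41% of the windows of genes tested. A GAS match occurred in 22.2%, in 6 of 11, in 2 of 21 (9.52%), in 7.02% and in 5.73%. Among the genes picked by the smallest p, an ISRE was in 2 and a GAS in 0 of the 10 windows of lower genes, against 1 and 2 of the 14 windows of higher genes. These windows came from 8 of the 10 lower and 7 of the 10 higher genes, as some genes had several windows and others none. The match is a description of letters and not a measured binding site. Forms of the elements that depart from these letters were not searched, so a window without a match, as in most class I genes, may still hold one. Genes with and without a match in the window were both among the low ones, as Psmb9 and Tap1 show for their RefSeq starts. The deposited Psmb9 locus runs on to position 34187764, so the stretch shown lies within it.

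At day 45 the interferon-response genes had a median difference of -0.07 between JIB-04 and vehicle CnAtg hearts, against -0.03 for all genes. No gene passed an adjusted p under 0.05 at that age either, and 618 (4.67%) had an unadjusted p under 0.05, 501 (3.79%) lower and 117 (0.885%) higher. In the test of the difference between the ages (day 77 minus day 45, 14 CnAtg libraries, 13226 genes) no gene passed an adjusted p under 0.05, the smallest being 0.626, and 553 genes (4.18%) had an unadjusted p under 0.05, 2.2% lower and 1.98% higher at day 77. Among the lower ones were 9 of the 28 interferon-response genes, or 4 without CnAtg JIB-04 day 45 replicate 3. Their median in this difference was -0.41, and -0.29 without that library. Iigp1 differed between the ages by -1.11 (95% interval -1.66 to -0.56), Gbp5 by -1.04 and Psmb9 by -0.86. Age and the week in which treatment began go together and cannot be told apart.

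Set beside all groups, the mean log2 level of the 28 genes was lowest in the CnAtg JIB-04 hearts of day 77. It was 2.201, 2.64, 2.58 and 2.65 there and 2.97, 3.26, 3.02 and 2.93 in the vehicle hearts of the same age, which did not overlap. The CnAtg hearts of day 45 had 2.91 ± 0.09 with vehicle and 2.83 ± 0.29 with JIB-04 (SD, n = 3 each). Of the JIB-04 hearts of day 45, replicate 3 at 3.17 stood above the others of its group. Replicates 1 and 2, at 2.68 and 2.65, lay below all vehicle hearts of that age, which ran from 2.81 to 3.00. WT hearts had 3.45 ± 0.27 with vehicle and 3.38 ± 0.23 with JIB-04 at day 45, and 3.22 ± 0.27 with JIB-04 at day 77 (SD, n = 3 each). At day 45 the CnAtg vehicle hearts differed from the WT vehicle hearts in 4590 of 12801 genes (35.9%) at an adjusted p under 0.05 (limma), 21.2% higher and 14.7% lower. Of the 28 interferon-response genes 20 were lower in the CnAtg hearts at that threshold, and Igtp was higher. The WT JIB-04 libraries are numbered apart in the deposit, so their levels are given without a test.

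**Figure D3:**
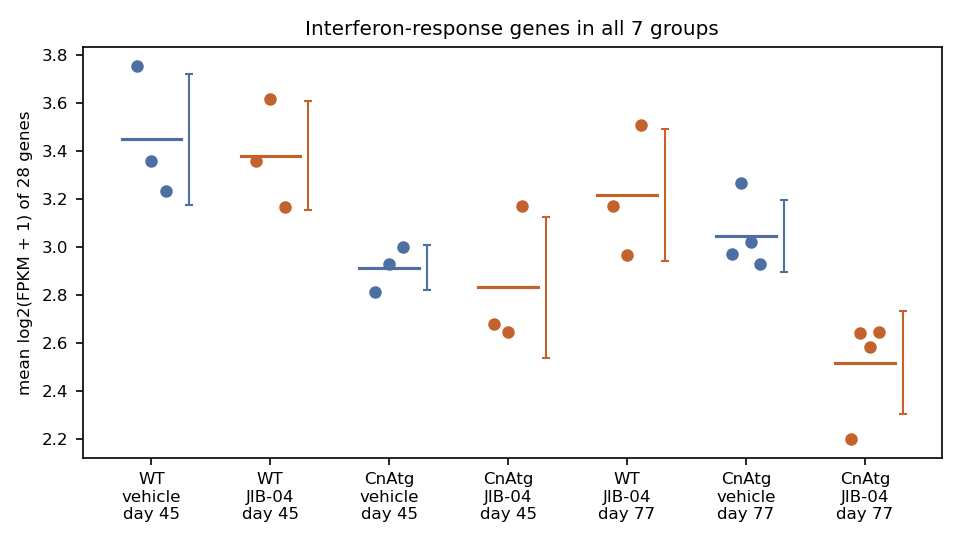
Mean log2(FPKM + 1) of the 28 interferon-response genes (y axis, which does not start at 0) in each library of the 7 groups (x axis), vehicle in blue and JIB-04 in orange. Points are libraries, lines means and bars SD. The 4 CnAtg JIB-04 hearts of day 77 lie between 2.201 and 2.65, all below the 4 vehicle hearts of that age.

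Marker lists of endothelial, smooth muscle, fibroblast and macrophage cells also had medians below 0. Endocardial and lymphatic endothelial markers did not, with a median of 0.04, 5 genes above 0 and 4 below. Nor did myofibroblast markers, with a median of 0.02, 4 above 0 and 4 below. For comparison, 61.1% of all genes were below 0 and 3.72% were lower without overlap. In bulk tissue fewer cells of a type and less RNA per cell cannot be told apart. Of 12 endothelial markers 11 were lower, with a median of -0.22 and no gene without overlap, and their summed FPKM ran from 246 to 310 with vehicle and from 201 to 260 with JIB-04. Cdh5, the endothelial cadherin, averaged 26.8 ± 2.98 against 22.2 ± 3.37 and the tight-junction gene Cldn5 11.2 ± 1.91 against 7.97 ± 1.83, while the receptor Flt1 averaged 13.9 ± 1.21 against 14.97 ± 2.22 (SD, n = 4 each). The endothelial median was -0.38 within the 3 hearts listing the transcripts at 0 and -0.08 within the other 5. Of 12 smooth muscle and pericyte markers 11 were lower with a median of -0.15, or -0.07 without JIB-04 replicate 1, -0.10 without JIB-04 replicate 2 and -0.09 without the male hearts, and none was without overlap. Their summed FPKM ran from 1173 to 1285 with vehicle and from 1118 to 1220 with JIB-04. Of 11 fibroblast markers 8 were lower with a median of -0.10, which was 0.03 without JIB-04 replicate 1, -0.04 without vehicle replicate 1 and -0.05 without vehicle replicate 4. That median was 0.25 within the 3 hearts listing the transcripts at 0 and -0.21 within the other 5, and Ly6a, which interferon also induces, did not overlap (-0.24). The fibroblast sum ran from 999 to 1279 with vehicle and from 1024 to 1367 with JIB-04, so it was not lower. Of 13 macrophage and monocyte markers 11 were lower with a median of -0.13, and the sum ran from 165 to 299 against 156 to 193. When vehicle replicate 1 was left out, 5 of 12 were lower and the median was 0.00. Within the 3 hearts listing the transcripts at 0 the median was 0.09, with 4 of 13 lower, and within the other 5 it was -0.36, with 13 of 13 lower. Ccr2, a receptor of recruited monocytes, read 2.71, 1.84, 1.54 and 1.58 against 1.28, 0.948, 0.893 and 1.46, which did not overlap, whereas Lyz2 and C1qa overlapped. The 7 B cell markers summed to 6.32 to 9.60 with vehicle and 3.40 to 6.17 with JIB-04. Ighm alone ran from 3.80 to 6.18 and from 1.91 to 4.27, and the defining markers Ms4a1 and Pax5 stayed below an FPKM of 0.4 in every library. The 11 T and NK cell markers summed to 5.80 to 7.23 against 2.46 to 6.54, with Cd3e, Cd3d and Cd8a below 0.6 throughout. Among 7 neutrophil markers Ly6g was at 0 in all 8 libraries, and the sum ran from 3.72 to 7.72 against 1.74 to 13.2. The part of these cells in the interferon result was not tested.

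Inflammatory mediators and proliferation genes were lower on average. Their counts of lower genes stand beside 61.1% of all genes. Of 19 cytokine, chemokine and inflammation genes tested 17 were lower with a median of -0.24. Ccl12, a monocyte chemoattractant, read 4.97, 3.15, 4.37 and 3.61 with vehicle and 2.07, 1.31, 0.254 and 1.71 with JIB-04, which did not overlap, and its difference was -1.17 ± 0.26 (SE). Its relative Ccl7 differed by -0.68 with overlap. Csf1, the growth factor of macrophages, averaged 16.2 ± 0.880 against 13.2 ± 1.47 (SD, n = 4 each). Of the 20 cell-cycle genes that passed the filter, of 32 listed, 15 were lower with a median of -0.22, or -0.14 without vehicle replicate 2, and among the 6 with an FPKM of at least 5 only 2 were lower. Birc5, a mitotic survival factor, read 1.42, 1.79, 1.52 and 1.18 against 0.752, 0.931, 0.811 and 0.768, the only member without overlap. Top2a, which untangles replicated DNA, averaged 1.65 ± 0.754 against 0.715 ± 0.171 and Cdk1, the mitotic kinase, 2.40 ± 1.10 against 1.11 ± 0.330 (SD, n = 4 each), close to the filter. The replication helicase genes Mcm3 and Mcm6 differed by -0.40 and -0.36 with overlap.

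**Figure D4:**
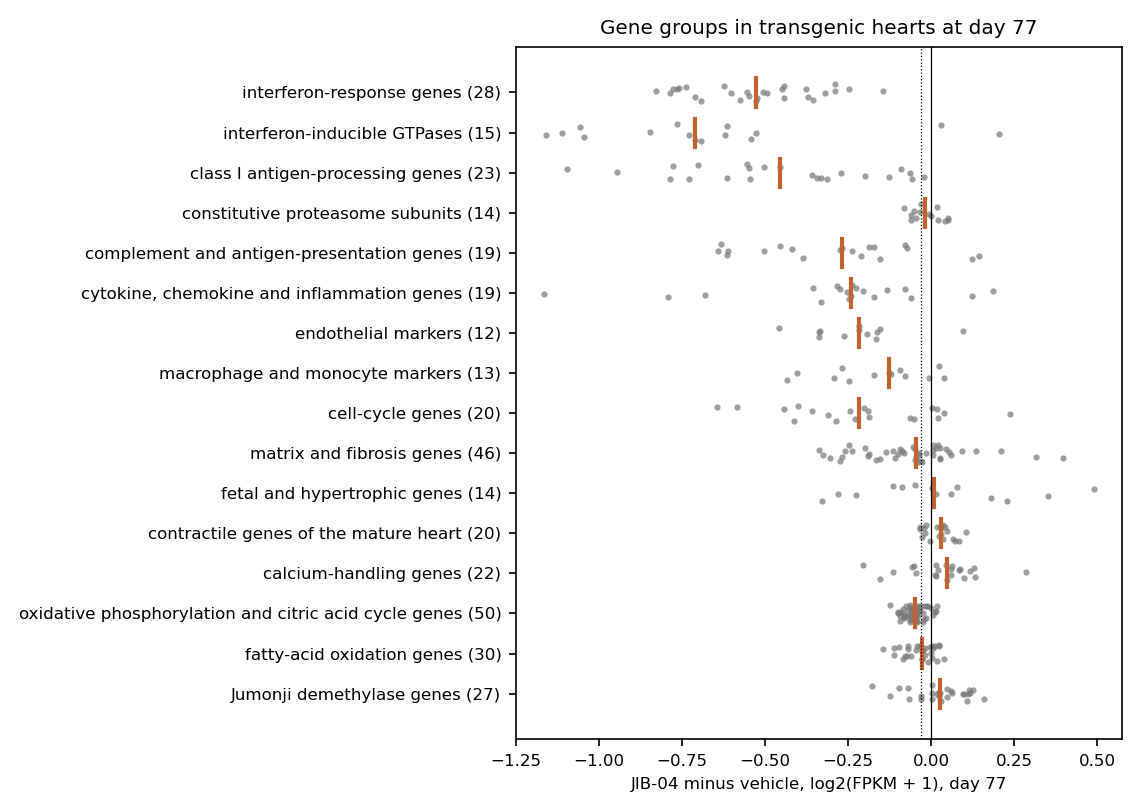
Differences between JIB-04 and vehicle at day 77 (x axis, log2(FPKM + 1)) for the tested members of 16 gene groups (y axis, number of genes in brackets). Grey points are genes, orange bars group medians, the solid line marks 0 and the dotted line the median of all genes. The interferon, GTPase and class I groups have medians of -0.53, -0.71 and -0.46, while the contractile, calcium-handling and metabolic groups lie near 0.

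The genes that mark hypertrophy lay near 0 as a group. The 14 fetal and hypertrophic genes had a median of 0.01, with 6 below 0. That median was 0.33 within the 3 hearts listing the mitochondrial transcripts at 0 and -0.09 within the other 5. Nppa, the atrial natriuretic peptide, read 658, 743, 317 and 905 with vehicle and 677, 1263, 726 and 884 with JIB-04, an overlapping spread with a difference of 0.49 (95% interval -0.21 to 1.19). Nppb, the brain natriuretic peptide, averaged 648 ± 108 against 605 ± 143 and the stress protein gene Ankrd1 992 ± 117 against 1031 ± 104 (SD, n = 4 each). Tpm2, a tropomyosin raised by the transgene at day 45 by 5.89 on the log2 scale, differed by 0.00 (95% interval -0.17 to 0.17). Of 13 list members tested for the transgene at day 45, all 13 were higher in CnAtg hearts at an adjusted p under 0.05, against 21.2% of all genes. Myh7, the fetal myosin heavy chain, was the list member without overlap and read 1644, 1635, 1652 and 1876 with vehicle and 2110, 1964, 1880 and 2017 with JIB-04. All 4 JIB-04 hearts were higher, by 0.23 ± 0.06 (SE; limma, unadjusted p = 0.0038, adjusted p = 0.46), although vehicle replicate 4 at 1876 nearly reached JIB-04 replicate 3 at 1880. Acta2, smooth muscle actin, averaged 354 ± 19.9 against 294 ± 41.5 (SD, n = 4 each) with overlap.

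**Figure D5:**
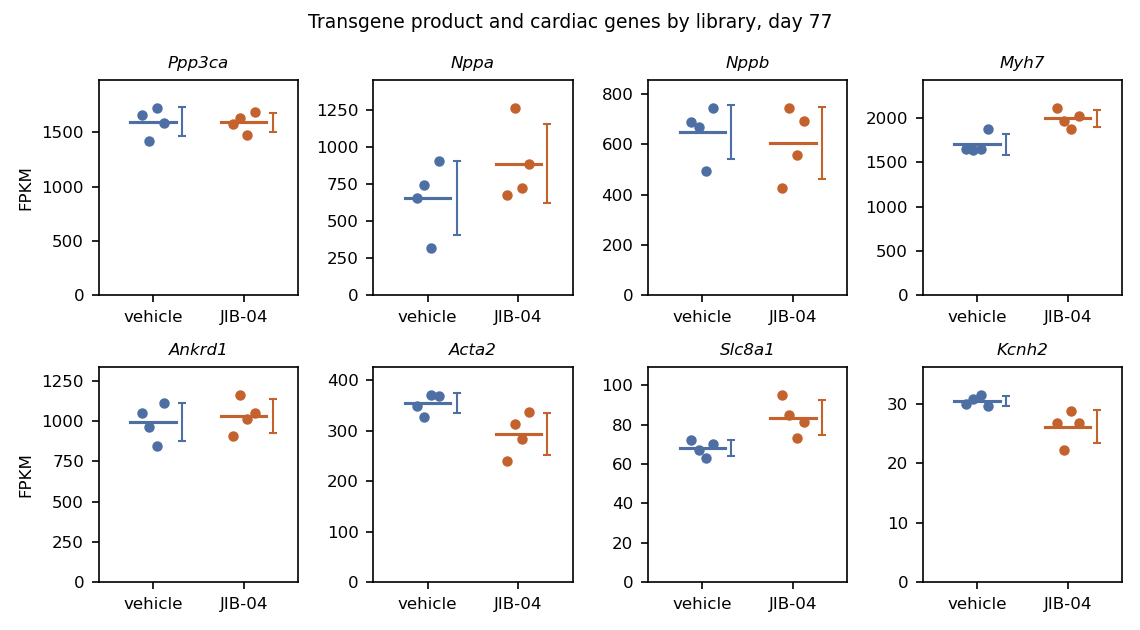
FPKM (y axis, from 0) of Ppp3ca and 7 cardiac genes in the 4 vehicle (blue) and 4 JIB-04 (orange) hearts of day 77. Points are libraries, horizontal lines means and bars SD. Ppp3ca, Nppa, Nppb, Ankrd1 and Acta2 overlap, Myh7 and Slc8a1 are higher and Kcnh2 is lower with JIB-04 in all 4 hearts.

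Most contraction and rhythm genes lay near 0. The 20 contractile genes of the mature heart had differences from -0.03 to 0.11, none with an unadjusted p under 0.05. Among 22 calcium-handling genes the median was 0.05. Atp2a2, the calcium pump of the sarcoplasmic reticulum, averaged 1706 ± 132 against 1775 ± 57.0 and the release channel Ryr2 85.2 ± 11.5 against 90.1 ± 6.80 (SD, n = 4 each). Slc8a1, the sodium-calcium exchanger, read 72.2, 67.1, 63.2 and 69.9 against 94.8, 84.6, 73.3 and 81.1, higher without overlap by 0.29. Of 25 ion channel and gap-junction genes, Kcnh2, a repolarizing potassium channel, read 29.9, 30.8, 31.4 and 29.6 against 26.7, 22.2, 28.8 and 26.9. The pacemaker channel Hcn2 differed by -0.32, also without overlap, from an FPKM of 2.50 ± 0.581 (SD, n = 4). The natriuretic peptide receptor Npr2 differed by -0.15 without overlap, and the adrenergic receptor Adra1a by 0.23 with overlap.

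Metabolic genes differed by small amounts. Of 50 nuclear-encoded oxidative phosphorylation and citric acid cycle genes 46 were below 0, against 61.1% of all genes. The median of -0.05 was however close to that of all genes, and only Ndufs3 (-0.10) did not overlap. Cs, citrate synthase, averaged 283 ± 12.6 against 285 ± 23.3 (SD, n = 4 each). The median of 30 fatty-acid oxidation genes was -0.03, the same as that of all genes. Ppara, the nuclear receptor that drives them, read 15.6, 13.98, 16.1 and 15.2 with vehicle and 18.5, 19.3, 22.8 and 17.6 with JIB-04, higher without overlap by 0.33 ± 0.08 (SE; limma, unadjusted p = 0.0027, adjusted p = 0.46). Of 23 PPAR targets and lipid storage genes 12 were below 0, with a median of 0.00. Among them Aqp7, the glycerol channel, differed by -0.44 without overlap, and the lipid droplet gene Plin2 by -0.24 with overlap. Gapdh, the glycolytic enzyme, differed by -0.15 without overlap.

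At day 45 the transgene had raised 36 of 45 tested matrix genes at an adjusted p under 0.05 (limma), against 21.2% of all genes. With JIB-04 at day 77 the matrix genes had a median of -0.05 over 46 genes. Of these 46 genes 30 were below 0, against 61.1% of all genes. The sign of that median rested on single hearts. Without vehicle replicate 1 the median was 0.01 and without JIB-04 replicate 1 it was 0.04. Within the 3 hearts listing the mitochondrial transcripts at 0 it was 0.22, and within the other 5 it was -0.24. Col3a1, a fibrillar collagen, read 142, 88.1, 93.9 and 96.7 against 47.9, 98.2, 89.9 and 104, where vehicle replicate 1 was the highest and JIB-04 replicate 1 the lowest of all 8. Col1a1 showed the same extremes, with 56.1 in vehicle replicate 1 and 21.7 in JIB-04 replicate 1 and the other 6 hearts between 33.2 and 41.3. Postn, made by activated fibroblasts, averaged 28.8 ± 4.24 against 28.7 ± 7.52 (SD, n = 4 each). Adam15, a membrane-bound metalloproteinase, differed by -0.41 without overlap.

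Genes of the drug's target family lay close to 0. None of 27 Jumonji demethylase genes had an unadjusted p under 0.05, and their differences ran from -0.18 to 0.16. Kdm3a averaged 6.01 ± 0.182 against 6.50 ± 0.453, Kdm4a 10.4 ± 0.678 against 11.5 ± 1.20, Kdm5b 4.26 ± 0.642 against 3.99 ± 0.324 and Kdm6b 7.42 ± 1.21 against 6.69 ± 0.820 (SD, n = 4 each), all with overlap. These are RNA levels, and the enzymes' activity was not measured. In the cell death list Gsdmd, the pore-forming protein of pyroptosis, read 4.00, 4.08, 4.17 and 4.33 against 2.86, 2.89, 3.01 and 3.68, and Casp8, an initiator caspase, 3.37, 2.97, 2.76 and 2.59 against 1.89, 2.23, 2.04 and 2.31. Neither overlapped, and both were lower. Of the 23 tested genes of that list, however, 13 were above 0 and 10 below, with a median of 0.02. Without overlap 3 were lower and 1 higher, against 3.72% and 1.19% of all genes. Trp53inp1, a p53 target, was higher without overlap by 0.58, but JIB-04 replicate 1 at 13.4 stood far above the other JIB-04 hearts at 5.58 to 6.91.

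Stress programs had medians near 0. Of 23 unfolded-protein genes, 18 heat-shock genes and 17 circadian clock genes, none had an unadjusted p under 0.05, while 5 of 21 hypoxia-response genes (2 higher, 3 lower), 2 of 16 immediate-early genes and 2 of 17 NRF2 target genes did, against 8.41% of all genes. The inducible chaperone gene Hspa1b read 7.83, 14.6, 8.43 and 12.2 with vehicle and 14.5, 24.7, 43.0 and 8.90 with JIB-04, a wide and overlapping spread. Among the hypoxia-response genes, with a median of 0.00, Car9, a carbonic anhydrase, was higher without overlap by 0.28, and Ddit4, a stress-induced inhibitor of growth signalling, ran from 20.1 to 45.2 against 24.2 to 97.8. Egr1, an immediate-early transcription factor, read 9.81, 12.5, 4.07 and 4.74 against 3.17, 2.91, 4.78 and 5.03, with vehicle replicates 1 and 2 above the rest. Foxo1, which drives atrophy genes, was higher without overlap by 0.17. Of 24 autophagy and lysosome genes, with a median of -0.06, 3 were lower without overlap, against 3.72% of all genes. These were the lysosomal protease Ctsb (-0.14), the lysosomal membrane protein Lamp1 (-0.08) and Tfe3 (-0.18), a transcription factor of lysosomal genes.

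The genes with the smallest unadjusted p and no overlap gave 10 names in each direction. Of the 10 lower ones, Iigp1, H2-T22, Psmb9, Ifi47, Rsad2 and Tap1 belong to the interferon and antigen-processing genes above. The others were Naaa, a lysosomal lipid amidase, at 7.78 ± 0.372 against 5.89 ± 0.288, Car7, a carbonic anhydrase, at 2.05 ± 0.228 against 1.146 ± 0.103, Rdm1 at 21.4 ± 1.11 against 17.1 ± 0.640, and Ppia, which encodes cyclophilin A, at 269 ± 9.61 against 224 ± 9.89 (SD, n = 4 each). The 10 higher ones were Fhit, Nckap5, Krt80, Aak1, Klf9, Ppara, RP23-406J20.2, Mbnl1, Ece1 and Clcc1. Fhit, a nucleotide hydrolase, read 0.889, 0.802, 1.153 and 1.14 with vehicle and 3.16, 3.02, 1.79 and 2.08 with JIB-04, a difference of 0.80 ± 0.15 (SE). Ece1, which activates endothelins, read 164, 217, 128 and 221 against 273, 353, 262 and 258, with replicate 2 the highest of the JIB-04 hearts. Klf9, a glucocorticoid-induced transcription factor, averaged 41.7 ± 1.61 against 49.4 ± 3.32 and the splicing regulator Mbnl1 30.0 ± 1.41 against 35.5 ± 2.37 (SD, n = 4 each). The highest mean FPKM among the other 5 was that of Clcc1, a chloride channel of the endoplasmic reticulum, at 40.7 ± 2.22 with JIB-04 against 35.1 ± 1.27 (SD, n = 4 each).

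Across genes the drug's differences at day 77 bore little relation to those at day 45 (Pearson's r = 0.06, Spearman's rho = 0.15, 12860 genes, no shared library) or to the transgene's effect at day 45 (r = 0.17, rho = 0.16, 12490 genes, no shared library). Genes are not independent replicates, so these are descriptions. Of the 456 genes that the transgene raised at least 2-fold at day 45, 45.2% were below 0 with JIB-04 at day 77 with a median of 0.02. Of the 211 genes it reduced at least 2-fold, 70.6% were below 0 with a median of -0.09. Over all 12490 genes 61.2% were below 0 with a median of -0.03, so both sets leaned slightly to the side of the transgene's own effect.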

How the data were processed

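Messenger RNA of whole hearts was sequenced without keeping the strand, per the labels' protocols, and each of the 23 deposited files gives the authors' log2 FPKM for 43154 features (the unit is named in the file headers). The submitters' processing notes name STAR 2.7.1a, Picard, GATK 4.1.2, Cufflinks 2.2.1 and the genome build GRCm38. The deposited log2 values were found to be log2(FPKM + 1), so an FPKM printed here is 2 to that power minus 1, and differences of low genes are understated.

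Genes that reached an FPKM of 1 in 3 or more of the 8 CnAtg libraries of day 77 were fitted with limma 3.58.1 in R 4.3.3 with an intensity trend, and p-values were adjusted by Benjamini-Hochberg over all 12860 genes with a threshold of 0.05. The difference between ages used the 14 CnAtg libraries, and the transgene effect used the 6 vehicle libraries of day 45. Intervals are 95% intervals of the fit. The fit was first tried on simulated data. Genes were drawn independently there, and those changed were shifted by more than most genes here differ, so small differences were not covered. Read counts were not used here, so depth is unknown and limits the low genes most.

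The members, gene lists and added lists were chosen with earlier results of these data known. Genes were named by a fixed rule: those past the threshold without overlap between groups, and otherwise, up to 10 each way, those without overlap with the smallest unadjusted p, besides members of the lists. Alternatives changed the pseudocount (0.1), the filter, the scaling, the samples fitted, the replicate block, sex as a term and each library. A gene listed but not found is not analysed here. Some members of the lists enter the counts and sums but are not reported here by name.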

Additional observations from a re-analysis of the deposited data

Results flagged for a closer look

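In 14 of 276 groups of 4 libraries looked at, 1 library stood apart from the other 3 by Dixon's criterion, about the 1 in 20 that chance gives. JIB-04 replicate 1 was the low library for Irf9 (FPKM 4.55), Cd74 (45.9) and H2-Eb1 (24.8), and the high one for Trp53inp1 (13.4) and Foxo1 (6.94). Vehicle replicate 3 was the high library for Gbp4 (10.4) and for Psme1, a proteasome activator subunit (43.02). Both hearts were male. Without these 2 hearts the median difference of the interferon-response genes was -0.39. With sex as a term in the fit of all 8 it was -0.53. As each group of 4 held 1 male, that term cannot change the difference and so tells nothing about sex. Vehicle replicate 1 was high for Ryr2 (102) and Col3a1 (142), vehicle replicate 2 for Pecam1, an endothelial adhesion gene (35.7), and vehicle replicate 4 for Myh7 (1876). JIB-04 replicate 2 was high for Ece1 (353) and low for the endothelial gene Esam (16.8). In JIB-04 replicate 4 the 10 highest genes held 27.1% of the summed FPKM, above the other JIB-04 hearts.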

How the results depend on the processing

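Under the 24 alternatives of the JIB-04 comparison at day 77, no gene passed the threshold except under 2. With no filter on low values Gm5943 passed (1 gene, with 1343 lower and 346 higher at an unadjusted p under 0.05). Within the libraries that list the mitochondrial transcripts at 0, a split added after seeing the data that holds 2 vehicle and 1 JIB-04 heart and takes the lone heart to vary like the others, 3 passed (Gm11382, Gm13015 and Gm20091), 506 were lower, 13 of the interferon-response genes were lower at that level, and Col16a1 turned to 0.08. Within the other libraries 524 were lower and 142 higher. An FPKM minimum of 5 left 550 lower genes and 10 interferon-response genes without overlap, as fewer genes were tested, and the difference in the number of features past it was -85.5 in place of -196. Median-ratio scaling gave 558 lower and 414 higher genes, and quantile normalization 520 and 478. Without the 2 male hearts, also added after seeing the data, 149 were higher. Leaving out 1 library at a time gave 0 genes past the threshold, 646 to 891 lower, 166 (without vehicle replicate 3) to 339 (without JIB-04 replicate 4) higher, 20 to 22 interferon-response genes lower at an unadjusted p under 0.05, 17 to 20 without overlap and medians from -0.58 to -0.43. For the difference between ages the counts were 167 lower and 169 higher with an FPKM minimum of 5, 567 and 495 with no filter, and, without 1 library at a time, 4 to 12 interferon-response genes. With the replicate block 0 genes passed, 745 were lower, 210 higher and 22 interferon-response genes lower at that level. In their deviations from the group means, same-numbered libraries correlated at -0.111, 0.084, -0.026 and -0.120. Libraries with different numbers ran from -0.139 to 0.154 in the same measure. With so few pairs this cannot decide whether the numbers pair the hearts. Of the 96 named genes with an unadjusted p under 0.05, 1 (Col16a1) changed sign under any alternative, and of the other 37, 27 did. The cause of the other shifts was not tested.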
